A study of Mus musculus with 2 samples.

Results

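Collagens were followed here across the cells of the mouse testis at 13 days of age. Genes were taken by name: Col, a number for the collagen type, the letter a and a number for the chain, with nothing more, and at least 30 UMIs (unique molecule counts) in the called cells of both libraries together. All 44 genes with such a name among the 32285 genes measured met the minimum, the fewest UMIs being 43, of Col10a1. The data were 10x 3' V3 single-cell libraries of testis from C57BL/6 mice, 1 per genotype. Control mice had 1 floxed allele of Psma7 beside the normal allele (Psma7 F/+), and no Cre is named for them. Conditional knockout mice were Psma7 F/-;Stra8-Cre KI/+: their floxed allele faced a null allele, and Cre expressed from Stra8 recombines in germ cells. Each cell of the knockout, somatic cells included, thus has the null allele. Psma7 encodes a subunit of the 20S proteasome. The number of mice per library is not given. A single library per genotype leaves every difference without replicates, so none was tested, and each 95% interval covers counting error only.

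Collagens are trimers of chains that hold stretches of triple helix, and each chain has its own gene. Fibrillar collagens form the banded fibres of connective tissue, collagen IV forms the network of basement membranes, and smaller families sit on fibrils, lie beside basement membranes or stay anchored in the cell membrane. In the testis a basement membrane and a layer of contractile peritubular myoid cells wrap each seminiferous tubule, Sertoli cells and germ cells lie within, and fibroblast-like stromal cells, Leydig cells, vessels and macrophages fill the interstitium.

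After filtering, the control library held 10737 cells with a median of 8046 UMIs, and the knockout library 10589, with a median of 5395, and 28 barcodes were shared. The Psma7 level was below that of the control in each of the 8 cell classes compared, with log2 ratios from -1.96 in germ cells past the undifferentiated stage to -1.06 in macrophages. Over all cells it stood at 231 and 98.1 CPM (UMIs per 1000000 UMIs of the cells summed). Where the deleted exons lie relative to the 3' tag is not given. Classes were named from marker genes after clustering without the collagen genes, and of the markers of the 6 somatic classes at least 9 of 11 stood 1.5-fold or more above all other cells. Sertoli cells numbered 3792 and 5652 (control, then knockout library, here and below), interstitial stromal cells 1720 and 2196, peritubular myoid cells 853 and 782, Leydig cells 262 and 268, endothelial cells 88 and 65, macrophages 120 and 130, undifferentiated spermatogonia 520 and 287 and other germ cells 3262 and 111. Free RNA, read from barcodes with 10 to 100 UMIs, held collagen at 2280.1 and 4555 CPM. No level was divided by transcript length, so levels are compared between cells and libraries and not between genes. A class called highest or next is so among the 8 classes compared.

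Collagen transcripts took a larger share of all UMIs in the knockout library, while the level within each main collagen-bearing class was close to that of the control. Over all cells the summed level of the 44 genes was 3624 CPM (3613 to 3635) in control testis and 6974 CPM (6957 to 6992) in knockout testis, which is a knockout to control log2 ratio of 0.94. In interstitial stromal cells it was 18024 CPM (17959 to 18089) and 17289.6 CPM (17242 to 17337), a log2 ratio of -0.06, and in peritubular myoid cells 9582 and 9123 CPM, a log2 ratio of -0.07. Leydig cells held 4376 and 3875 CPM (-0.18), endothelial cells 4325 and 4922 CPM (0.19), macrophages 657 and 693 CPM (0.08), Sertoli cells 655 and 637 CPM (-0.04) and undifferentiated spermatogonia 512 and 543 CPM (0.08). Other germ cells, with the lowest level, were not close between the libraries, at 229 and 443 CPM (0.95), on 3262 and 111 cells. Cells named as rete or mesothelial epithelium (16 and 14) held 22571 and 21168 CPM. Pericytes (42 and 25) held 6058 and 6723 CPM, and both classes were too small to be compared. In macrophages free RNA could make up at most 13.4% and 6.03% of all UMIs, and 5 cells held 82.7% and 79.2% of the fibrillar collagen UMIs. Their part in the macrophage level was not tested. Class shares of UMIs differed more: interstitial stromal cells gave 14.3% of all cellular UMIs in control testis and 32.3% in knockout testis. They made up 16.0% and 20.7% of the cells, with medians of 9075.5 and 12872 UMIs per cell. Sertoli cells, with medians of 5109 and 3935 UMIs, made up 35.3% and 53.4% of the cells, and other germ cells 30.4% and 1.05%. With each class held at its control level and weighted by its share of UMIs in the knockout library, the summed level came to 7312 CPM. These weights include the UMIs per cell, and the part of the mix in the higher level was not tested. Shares of UMIs depend on the UMIs per cell as well as on the cells caught. Shares of cells depend on how many cells of each class were caught, so a change in cell number cannot be told apart from a change in capture. Interstitial stromal cells held 70.9% of collagen UMIs in control testis and 80.1% in knockout testis, and peritubular myoid cells 12.3% and 9.18%. The direction of the small ratios depends on the cells taken: with doublets kept the ratio in stromal cells was 0.06, and with each library clustered alone that in Leydig cells was 0.45.

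**Figure D1:**
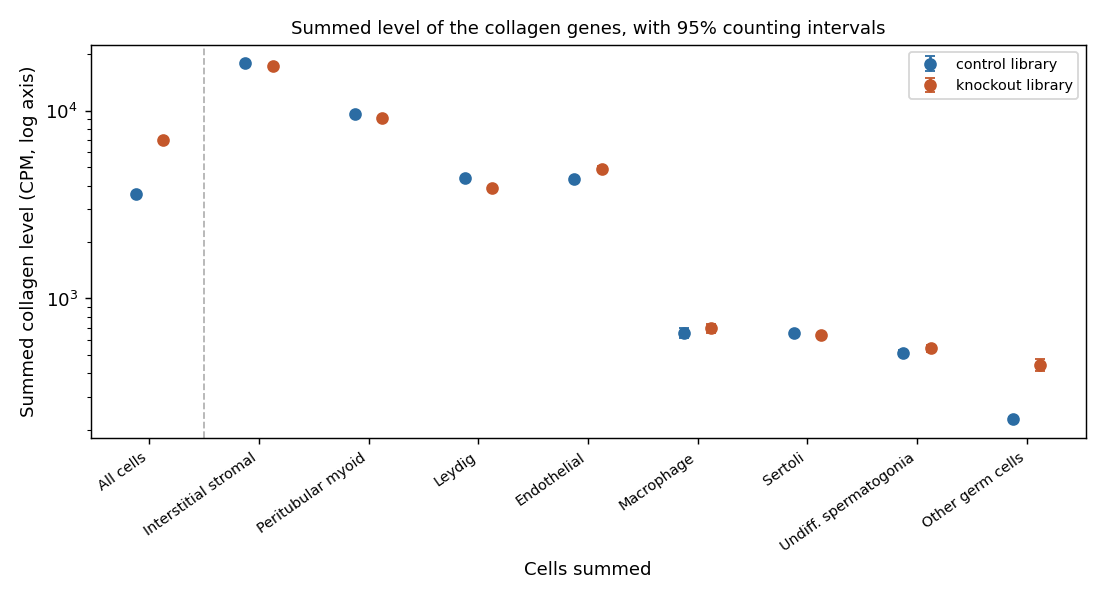
Summed level of the 44 collagen genes in CPM (log axis) over all cells and in each of 8 cell classes, with 1 point per library and bars for the 95% counting interval. The pairs for all cells (3624 and 6974 CPM) and other germ cells (229 and 443 CPM) stand apart. Those for interstitial stromal cells (18024 and 17289.6 CPM) and peritubular myoid cells (9582 and 9123 CPM) lie side by side.

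Most UMIs of the main fibrillar collagens lay in interstitial stromal cells. Col1a1 and Col1a2, the chains of collagen I, stood in interstitial stromal cells at 4184 and 4293 CPM and at 4195 and 4347 CPM, log2 ratios of 0.04 (0.02 to 0.05) and 0.05 (0.04 to 0.06). Col3a1, which forms the homotrimer of collagen III, stood there at 5151 CPM (5116 to 5186) and 4245 CPM (4222 to 4269), a log2 ratio of -0.28. Collagen I was thus nearly level between the libraries in this class, and Col3a1 was lower beyond counting error yet short of 1.5-fold. Of all Col1a1 UMIs, 87.2% and 91.3% were in stromal cells, and of Col3a1 UMIs 84.7% and 88.9%. Peritubular myoid cells had Col1a1 at 905 and 784 CPM, and Leydig cells had Col3a1 at 1407 and 989 CPM, with the log2 ratio at -0.51 (-0.56 to -0.46), though at 0.09 with each library clustered alone. Collagen I and III chains are the bulk of the fibres between tubules, and both had their highest level in stromal cells.

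Collagen V, which co-assembles with collagen I and limits fibril width, followed the same cells. Col5a2 was at 345 and 367 CPM in stromal cells, Col5a1 at 231 and 209 CPM, and Col5a3 at 44.2 and 51.2 CPM with 86.2% and 91.98% of its UMIs in that class. Col11a1, a chain of the cartilage fibril collagen XI, had its highest class level in Leydig cells, at 41.5 and 33.9 CPM. Cluster 14 of the stromal class, described below, had Col11a1 at 110 and 94.2 CPM. The minor fibrillar gene Col24a1 differed from its group, with 68.01% and 54.2% of its UMIs in Sertoli cells (12.3 and 13.4 CPM). Its span overlaps D530037P16Rik on the same strand, and whether shared reads were counted for it is not given. Col27a1, also a minor fibrillar gene, had its highest level in stromal cells, at 33.3 and 36.8 CPM, with 54.9% and 78.7% of its UMIs there.

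Col3a1 starts at the base after chr1:45311288-45311537 of GRCm38.p6 (plus strand), and that stretch, from the RefSeq promoter table, is shown because Col3a1 is among the few collagen genes with TATAAA in the 250 bases before the start. The motif is in capitals.
Col3a1: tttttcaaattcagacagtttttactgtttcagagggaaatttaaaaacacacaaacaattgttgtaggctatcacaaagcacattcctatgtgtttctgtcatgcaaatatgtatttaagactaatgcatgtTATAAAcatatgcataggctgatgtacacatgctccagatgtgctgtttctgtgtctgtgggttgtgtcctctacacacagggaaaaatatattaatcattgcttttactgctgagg
TATAAA (or TTTATA, for the other strand) was found in the 250 bases before the start in 13.2% of 38 windows of collagen genes, 35 of the 44 genes having one, and in 12.4% of 32851 windows of all genes. The 5 collagen windows with it were those of Col3a1, Col10a1, Col11a2, Col13a1 and Col17a1. CCAAT (or ATTGG) was in 34.2% and 33.8%. Neither share stands far from that of all genes, and a match describes letters, not a site in use.

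Within the stromal class, 1 cluster carried more collagen than the rest. Cluster 14 held 214 and 316 cells, 12.4% and 14.4% of the stromal cells, and 33.004% and 36.4% of their collagen UMIs. Its summed collagen level was 44491 and 43320.2 CPM, against 12992 and 12008 CPM in cluster 2, 15303 and 15067 CPM in cluster 3 and 11537 and 10853 CPM in cluster 23. Among the genes that lead it are Postn and Lum, both of fibroblast matrix, besides Col6a5. Col1a1 stood at 12367 and 12656 CPM there and at 3138 and 3428 CPM in cluster 3. Col12a1 and Col14a1, which lie along collagen I fibrils, were at 104 and 107 CPM and 357 and 295 CPM, against 2.01 and 3.53 CPM and 24.5 and 16.4 CPM in cluster 3. Col6a5 had 528 of its 539 stromal UMIs of the control in cluster 14, and 937 of 955 in the knockout library. Transmembrane genes ran the other way: Col13a1 was at 15.8 and 8.91 CPM in cluster 14 and 53.8 and 75.3 CPM in cluster 3, and Col23a1 at 28.5 and 27.7 CPM against 111 and 138 CPM. Both libraries gave the same order for each of these genes. A cluster set against others is a description, with no test.

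Basement membrane collagen IV split into 3 patterns by cell class, as its genes pair on the chromosomes. Each pair lies head to head, its genes read away from each other. The annotated starts of Col4a4 and Col4a3 leave 71 bases between them and those of Col4a5 and Col4a6 leave 1308, while the starts of Col4a1 and Col4a2 lie 21 bases apart with overlapping spans. The gap between the genes that are highest in the tubule wall is chr1:82586850-82586920 of GRCm38.p6, given on the plus strand, on which Col4a3 reads, from the RefSeq promoter table.
Col4a3 and Col4a4 gap: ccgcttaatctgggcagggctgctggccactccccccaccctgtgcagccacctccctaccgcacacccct
It holds 69.01% G and C, against a median of 54.9% in the 71 bases before the starts of all genes. It has no capitals since none of the motifs searched on both strands was found. CCAAT, or ATTGG on the other strand, was in 13.3% of such windows. TATAAA on either strand was in 4.41% of them. GGGCGG, or CCGCCC on the other strand, was in 20.7%. That covers these letters in these 71 bases and nothing more.

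Col4a3 and Col4a4 encode chains that join α5 in the network of mature basement membranes, and both were highest in peritubular myoid cells. Col4a4 stood there at 2329 CPM (2288 to 2369.6) and 2013 CPM (1978 to 2048), and Col4a3 at 1664 CPM (1629.8 to 1699) and 1349 CPM (1320.2 to 1377). In interstitial stromal cells, the next class, Col4a4 was at 554 and 449 CPM and Col4a3 at 187 and 154 CPM. Both genes were lower in the knockout library in both classes, with log2 ratios of -0.21 and -0.30 in myoid cells and -0.30 and -0.28 in stromal cells, intervals below 0 and changes under 1.5-fold. Stromal cluster 14, which has the most collagen, went the other way, with Col4a3 at 257 and 337 CPM (0.39) and Col4a4 at 668 and 705 CPM (0.08). Both genes were lower in the other 3 clusters, with ratios from -0.42 to -0.25 in clusters 2 and 3. In cluster 23, with 74 and 121 cells, both were past 1.5-fold, Col4a3 at 465 and 184 CPM (-1.34) and Col4a4 at 710 and 384 CPM (-0.89). Sertoli cells had Col4a3 at 42.6 and 46.5 CPM and Col4a4 at 53.7 and 44.2 CPM.

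Col4a1 and Col4a2, the chains of the network found in nearly all basement membranes, were highest in endothelial cells. Col4a1 stood there at 1903 CPM (1840.5 to 1967) and 1799 CPM (1714 to 1887), and Col4a2 at 1039 and 974 CPM, with log2 ratios of -0.08 (-0.17 to 0.00) and -0.09 (-0.21 to 0.02). Peritubular myoid cells came next, and there both genes were higher in the knockout library. Col4a1 was at 696 CPM (674 to 719) and 941 CPM (917 to 965), a log2 ratio of 0.43, and Col4a2 at 375 and 482 CPM, 0.36 (0.28 to 0.44). So in myoid cells the Col4a1 and Col4a2 pair was higher and the Col4a3 and Col4a4 pair lower in the knockout library, each by less than 1.5-fold. Col4a5 and Col4a6, which join in the network around smooth muscle and some epithelia, were spread over 3 classes. Col4a5 was at 189 and 188 CPM in stromal, 181 and 189.8 CPM in myoid and 182 and 146 CPM in Leydig cells. Col4a6 was at 74.1 and 79.7, 85.9 and 83.1 and 64.999 and 52.2 CPM in the same order.

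**Figure D2:**
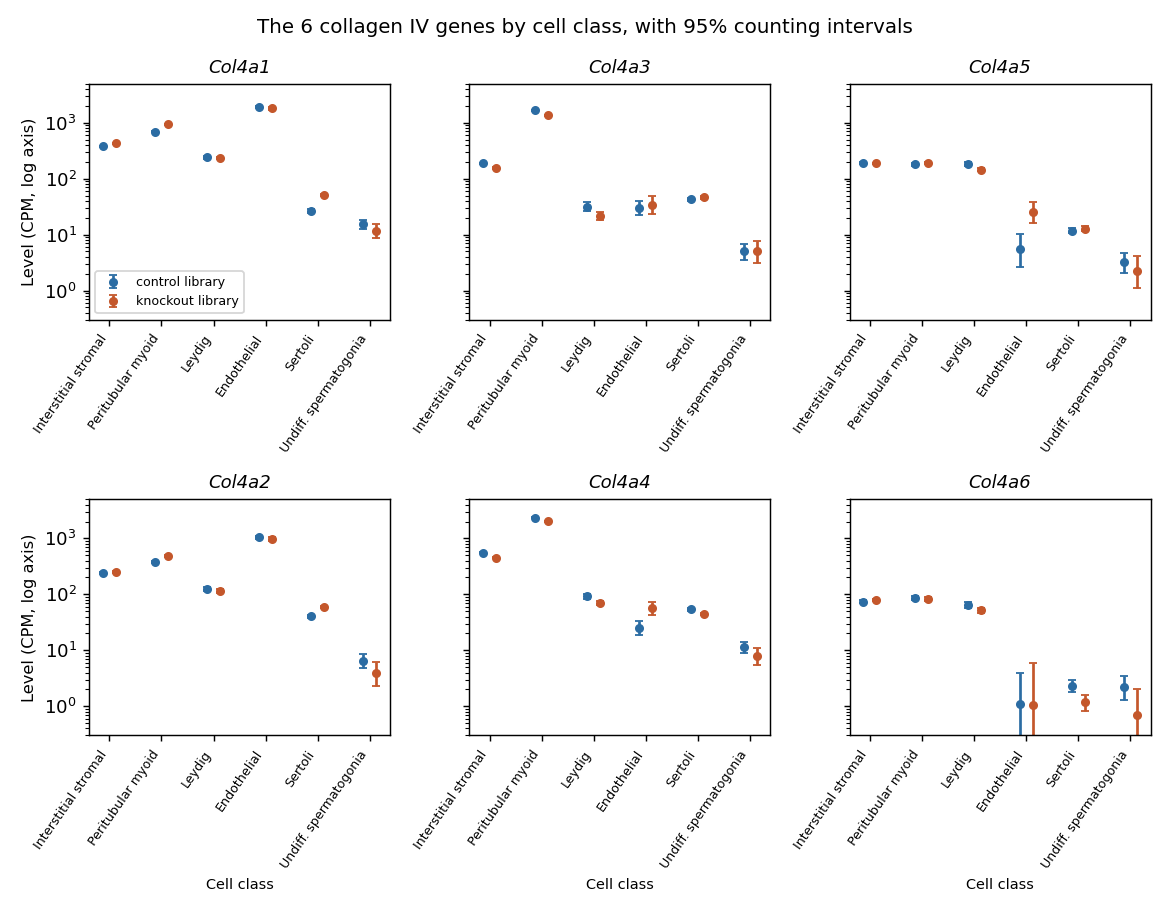
Level in CPM (log axis) of the 6 collagen IV genes in 6 cell classes, with 1 point per library and bars for the 95% counting interval. Col4a3 and Col4a4 peak in peritubular myoid cells (1664 and 2329 CPM in the control), Col4a1 and Col4a2 in endothelial cells (1903 and 1039 CPM), and Col4a5 and Col4a6 have like levels in stromal, myoid and Leydig cells.

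Across 16 profiles (8 classes in 2 libraries) the log2(CPM + 1) levels of Col4a3 and Col4a4 correlated at r = 0.97, those of Col4a1 and Col4a2 at 0.98 and those of Col4a5 and Col4a6 at 0.94, while Col4a1 and Col4a3 correlated at 0.68. The median over all 946 pairs of collagen genes was 0.40. Col6a1 and Col6a2, on the same strand of chromosome 10, correlated at 0.99, and Col3a1 and Col5a2, tail to tail on chromosome 1, at 0.93. Col9a1 and Col19a1, also tail to tail, lie 9205 bases apart at r = -0.25. Col19a1 had 99 and 108 UMIs over all cells and at most 2.06 CPM in a control profile. Their r thus rests on few counts and cannot show whether nearness goes with a high r. The other pairs on a chromosome with gaps under 500000 bases had lower or negative values. Col6a5 was at 0.43 with Col6a4 and 0.61 with Col6a6, and Col6a4 and Col6a6 were at 0.52. Col18a1 was at -0.38 with Col6a1 and -0.44 with Col6a2, and Col20a1 and Col9a3 were at -0.29. Near pairs thus had both high and low r. Col9a2 and Col9a3, chains of the same collagen IX, correlated at 0.05. The profiles share 2 libraries and their depth, so r describes the pattern and carries no test.

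Collagen VI, the beaded filament around cells, followed the fibrillar genes in its main chains. Col6a1 was at 716 and 656 CPM in stromal cells, 426 and 369.5 CPM in myoid cells and 366 and 346 CPM in Leydig cells. Col6a2 and Col6a3, which join it in the core trimer, were at 372 and 348 and 305 and 257 CPM in stromal cells. Of the chains that can take the place of Col6a3, Col6a4 was highest in myoid cells (107 and 81.95 CPM) and Col6a5 in stromal cells (32.6 and 32.5 CPM), and Col6a6 was at 27.2 and 33.9 CPM in stromal and 21.1 and 42.9 CPM in myoid cells.

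The multiplexins, which lie in or next to basement membranes, were both highest in endothelial cells and differed in the next class. Col18a1, whose end can be cut to endostatin, had 83.3% and 67.7% of its UMIs in Sertoli cells, though its level was highest in endothelial cells, at 456 and 447 CPM. Col15a1 was also highest in endothelial cells (377 and 299 CPM), with stromal cells at 194 and 210.5 CPM and Sertoli cells at 1.38 and 2.49 CPM. Of the fibril-associated genes, Col14a1 was highest by class in Leydig cells, at 162 and 96.7 CPM, below the 357 and 295 CPM of stromal cluster 14. Col9a1 had 92.6% and 96.7% of its UMIs in stromal cells, on 113 and 203 UMIs there. Col16a1 was at 44.5 and 40.6 CPM in stromal and 44.6 and 37.9 CPM in myoid cells. The short-chain gene Col8a2, of a network known from vessel walls and the cornea, was highest by class in myoid cells, at 21.3 and 15.98 CPM. Stromal cluster 14 had Col8a2 at 48.0 and 54.4 CPM.

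Germ cells carried transmembrane and fibril-associated collagens. Col25a1, a transmembrane collagen, stood in undifferentiated spermatogonia at 148 CPM (140.1 to 157) and 124 CPM (114 to 135). Leydig cells had it at 119 and 163 CPM and stromal cells at 113 and 139 CPM, so the order of these 3 classes was not the same in the libraries. Col13a1, a transmembrane collagen of cell junctions, was at 43.8 and 76.6 CPM in undifferentiated spermatogonia. Col22a1, a fibril-associated collagen known from tissue junctions, stood there at 36.4 CPM (32.2 to 40.8) and 17.1 CPM (13.4 to 21.4), and in other germ cells at 26.7 and 32.8 CPM. Those other germ cells held 76.3% of the control's Col22a1 UMIs and numbered 3262 and 111, and over all cells Col22a1 was at 14.7 and 2.68 CPM. At its upper limit free RNA could make up 0.824% of the Col22a1 level and 0.264% of the Col25a1 level in undifferentiated spermatogonia of the control. Col28a1, related to the beaded filament family, was at 7.45 and 8.64 CPM in the same cells.

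The rarest genes were Col10a1, Col2a1 and Col19a1. Col10a1, the collagen of growth plate cartilage, had 33 and 8 UMIs over all cells, 20 and 1 of them in interstitial stromal cells. Col2a1, the main cartilage collagen, had 142 and 54 UMIs, of which 106 and 7 were in other germ cells. Col19a1, a fibril-associated collagen, had 99 and 108 UMIs, of which 28 and 29 were in the few cells named as pericytes. Col20a1, also fibril-associated, was more frequent and had its highest class level in Leydig cells, at 16.8 and 23.7 CPM. Stromal cells had it at 13.3 and 16.96 CPM, and stromal cluster 14 at 20.4 and 26.5 CPM.

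**Figure D3:**
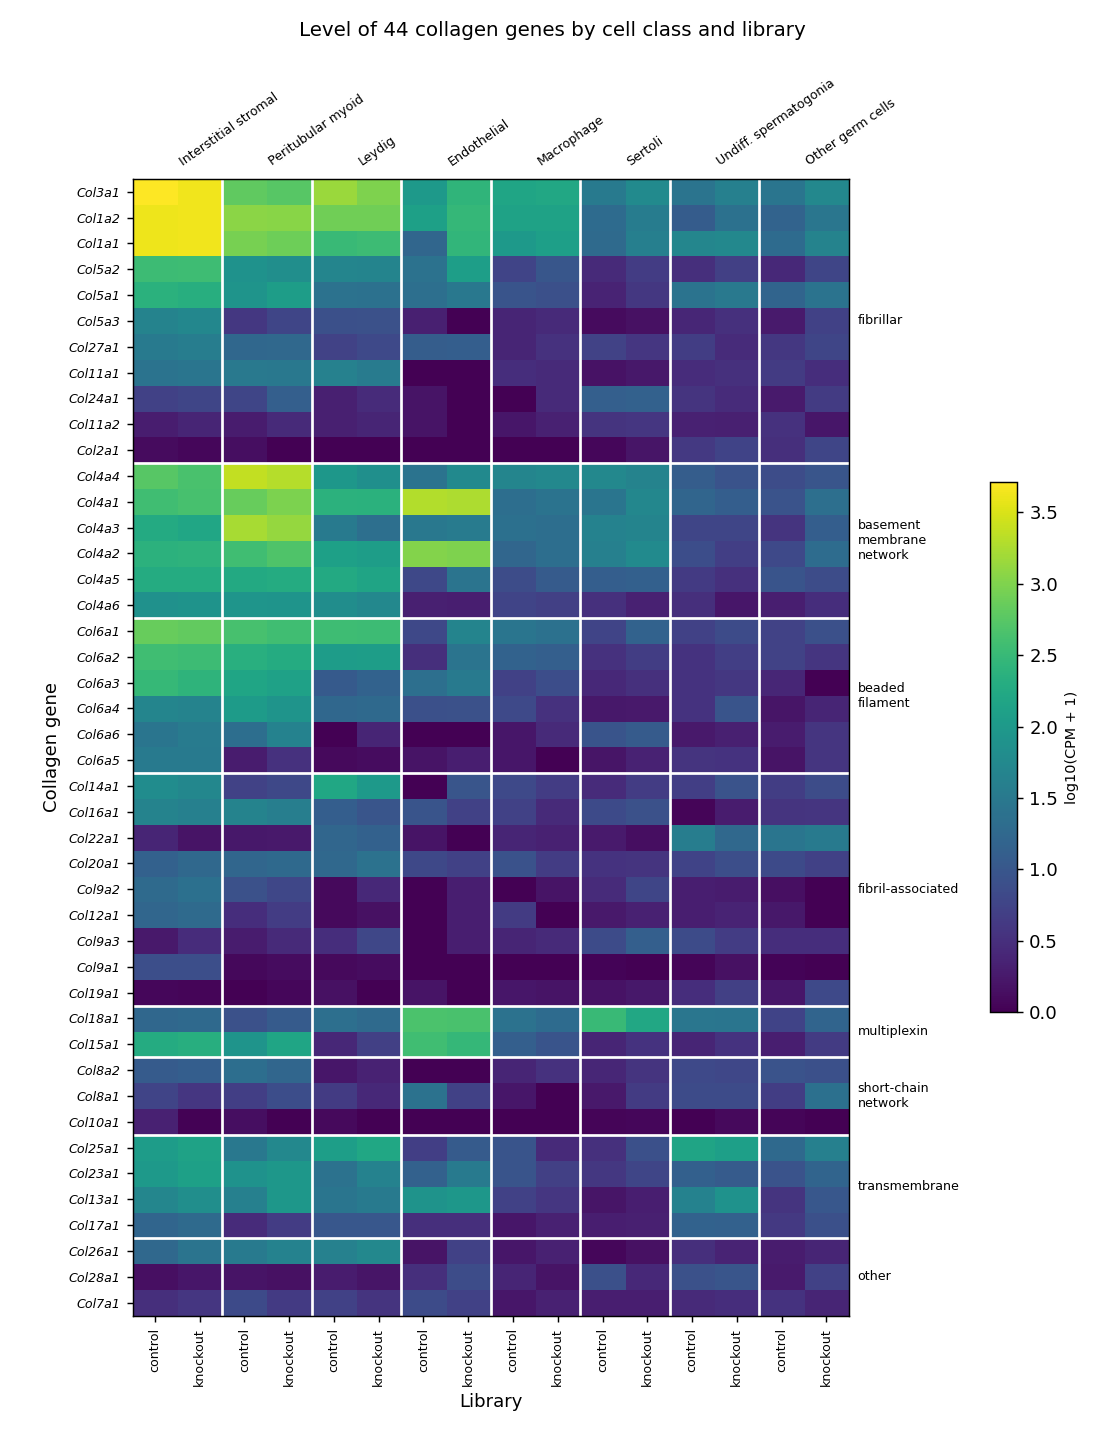
Levels of the 44 collagen genes (rows, grouped by family) as log10(CPM + 1) in 8 cell classes, with 1 column per library and a lighter colour for a higher level. Col1a1, Col1a2 and Col3a1 are lightest in interstitial stromal cells, Col4a3 and Col4a4 in peritubular myoid cells, Col4a1 and Col4a2 in endothelial cells, and Col25a1 is light in undifferentiated spermatogonia (148 and 124 CPM).

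The libraries were then compared within each class. A gene counted as measured in a class with at least 30 UMIs over both libraries, and as past the fold at 1.5-fold or more. Shares of all genes past the fold are for the main processing, and none is given for counts under other settings. In interstitial stromal cells 40 collagen genes were measured. Of these 2 were higher by the fold in the knockout library, as 5.76% of all 15556 genes measured were, and 2 lower, as 3.22% were. The median log2 ratio was 0.09, and -0.02 over all genes. Higher were Col26a1, a collagen first described in testis and ovary, at 16.9 CPM (14.96 to 18.98) and 26.05 CPM (24.2 to 27.96), and Col9a3, on 13 and 58 UMIs. Lower were Col8a1 and Col22a1, on 80 and 83 and on 23 and 17 UMIs. The span of Col26a1 overlaps Gm20485 on the same strand. Neither Col26a1 nor Col8a1 passed the fold in every set of clusters: Col26a1 was at 0.55 without cluster 2 and 0.48 without cluster 3, and Col8a1 at -0.16 without cluster 14. Col9a3 was at 2.44 without cluster 2, on 3 and 28 UMIs. In the class as a whole the 4 transmembrane genes were higher in the knockout library without reaching the fold, at 0.44 (0.32 to 0.56) for Col13a1, 0.41 (0.32 to 0.49) for Col23a1, 0.30 (0.22 to 0.38) for Col25a1 and 0.26 (0.04 to 0.48) for Col17a1. In cluster 14 Col17a1 was also higher, at 1.08 on 6 and 26 UMIs, but the others were not. There Col25a1 was at 60.6 and 25.1 CPM (-1.27), Col13a1 at -0.83 on 35 and 38 UMIs and Col23a1 at -0.05. Few collagen genes thus passed the fold in stromal cells, and few of all genes measured there did.

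Peritubular myoid cells had 35 collagen genes measured, of which 9 were higher by the fold in the knockout library, as 5.87% of all 12874 genes were, and 1 was lower, as 6.87% were. The median log2 ratio was 0.07, and -0.07 over all genes. Col13a1 was at 40.5 CPM (35.3 to 46.3) and 90.9 CPM (83.6 to 98.6), a log2 ratio of 1.16 (0.94 to 1.40). Col15a1 was at 82.9 CPM (75.4 to 90.9) and 151 CPM (142 to 161), 0.86 (0.70 to 1.03). Both stood apart beyond counting error, as did 3 others of the 9. Col6a6 was at 21.1 and 42.9 CPM, 1.02 (0.70 to 1.35), Col25a1 at 29.98 and 53.1 CPM, 0.82 (0.55 to 1.10), and Col24a1 at 4.996 and 12.4 CPM, 1.29 (0.66 to 1.997). The intervals of Col5a3, Col8a1, Col12a1 and Col17a1 reach 0. The lower gene, Col7a1, the anchoring fibril collagen, had 31 and 21 UMIs and an interval that reaches 0 as well. With a minimum of 100 UMIs, 5 genes were higher. The class was made of clusters 5 and 16: in cluster 5 Col13a1 was at 41.2 and 92.5 CPM and Col15a1 at 86.1 and 154 CPM, and in cluster 16, with a median of 1835 UMIs, at 34.2 and 73.97 CPM and 53.2 and 122 CPM. Both clusters gave the same direction. Of 18 genes that respond to cell handling, such as Junb and Klf2, 7 were higher by the fold and 0 lower in myoid cells, with a median log2 ratio of 0.51. Their part in the collagen values was not tested.

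**Figure D4:**
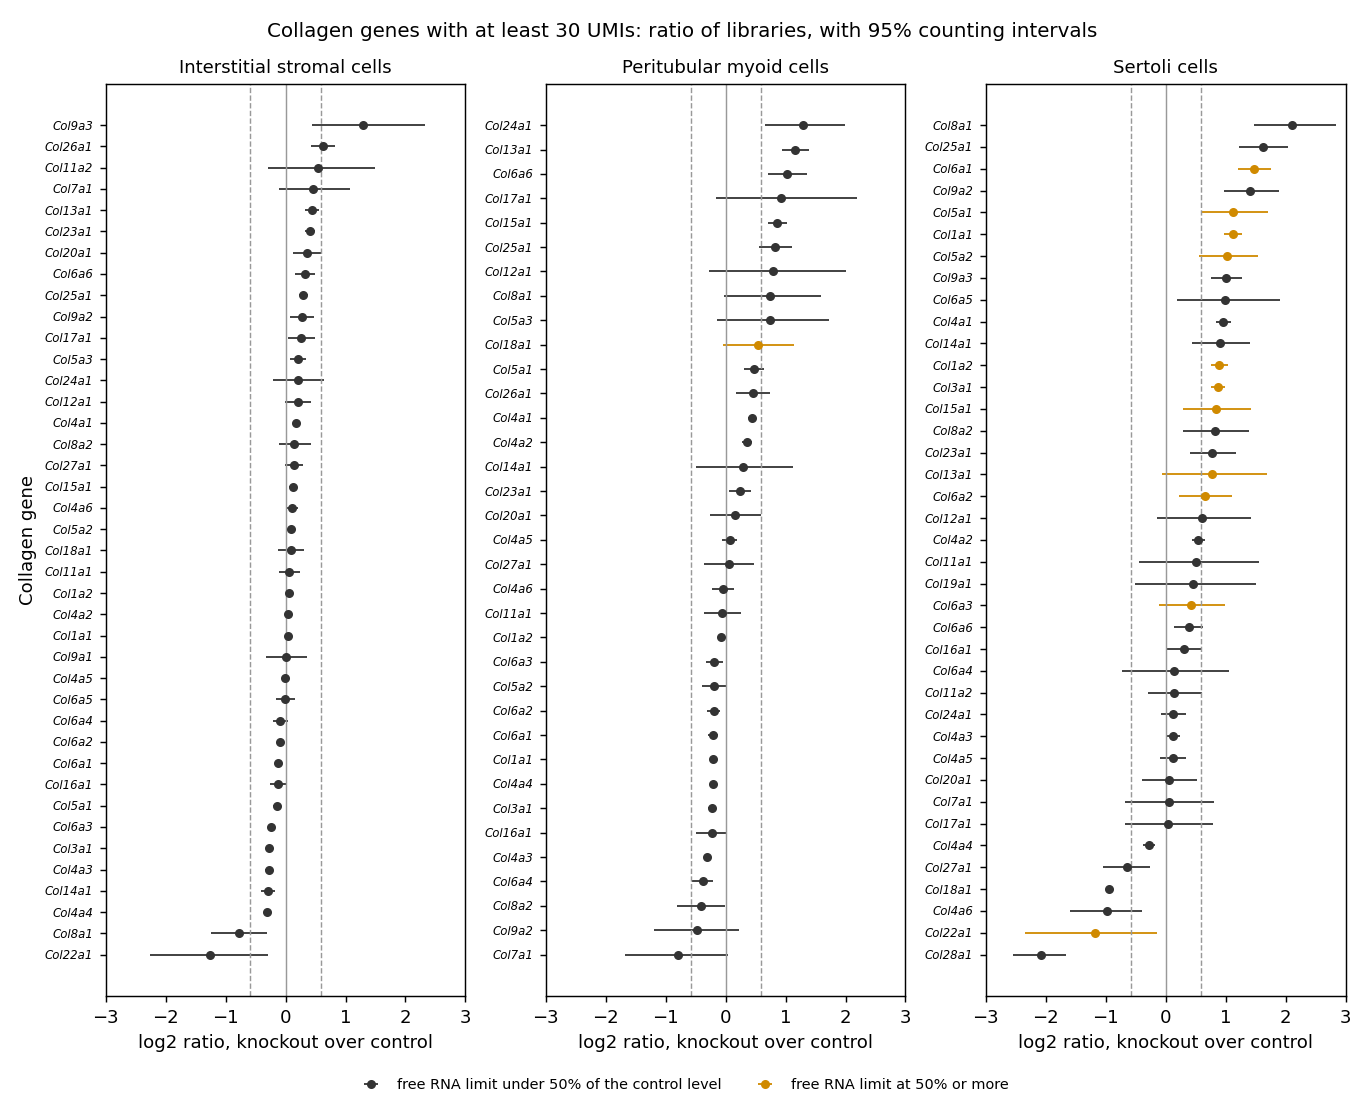
Log2 ratio of the knockout over the control library (horizontal axis) for each collagen gene with at least 30 UMIs in interstitial stromal, peritubular myoid and Sertoli cells, with 95% counting intervals and dashed lines at 1.5-fold. Stromal genes crowd around 0, while 9 myoid and 19 Sertoli genes lie beyond the upper line, 9 of the latter in orange, for which the free RNA limit is 50% or more of the control level.

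In Sertoli cells 39 collagen genes were measured, of which 19 were higher by the fold in the knockout library, as 19.8% of all 16692 genes were, and 5 lower, as 9.02% were. The median log2 ratio was 0.54, and 0.05 over all genes. Most of the higher genes had low levels. Free RNA could make up at most 4.25% and 3.49% of Sertoli UMIs, and at those limits it would hold 50% or more of the control level of 9 of the 19. Among these 9 were Col1a1 (18.2 and 39.7 CPM), Col3a1 (31.8 and 58.2 CPM) and Col6a1 (4.84 and 13.5 CPM), which lead in stromal cells. With those limits subtracted 15 genes were higher, and with 10% of UMIs subtracted 8. With the limits subtracted the log2 ratio of Col1a1 went from 1.12 to 2.08 and that of Col6a1 from 1.48 to 3.29. The limits take 50% or more of the control level of both genes, so these ratios depend on the small control level left. Over the 12 settings with a value, the ratio ran from 0.78 to 2.08 for Col1a1 and from 1.30 to 3.29 for Col6a1. Of the 18 genes of cell handling, 17 (median log2 ratio 1.09), and of the 18 of G2 and mitosis, 17 (median 1.54), were higher by the fold in Sertoli cells of the knockout library. Their part in the collagen values was not tested.

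The collagen gene with the most UMIs in Sertoli cells was Col18a1, and it was lower in the knockout library. Its level was 327 CPM (321 to 334) on 9466 UMIs and 169 CPM (165 to 174) on 5655 UMIs, a log2 ratio of -0.95 (-0.998 to -0.90). At most 1.45% and 2.40% of those levels could be free RNA. Sertoli cells of the libraries fell mostly into different clusters, those of the control into clusters 4, 6 and 12 and those of the knockout library into clusters 0 and 1. In 6 of the 6 clusters with at least 50 cells in both libraries Col18a1 was lower in the knockout library, with log2 ratios from -0.90 to -0.37. Cluster 13, with 346 and 358 cells, had it at 375 and 209 CPM, and cluster 4, with 997 and 235 cells, at 365 and 196 CPM. Over all cells Col18a1 was at 97.97 and 91.8 CPM. With control levels in each class and the knockout library's shares of UMIs it would be at 152 CPM, and the part of the mix was not tested. In endothelial cells, its other main site, the log2 ratio was -0.03 (-0.20 to 0.14). Whether the ratio differs between Sertoli and endothelial cells was not tested. Col28a1 was also lower in Sertoli cells, at 7.02 CPM (6.09 to 8.06) and 1.65 CPM (1.24 to 2.14), and in 5 of the 6 clusters.

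Of the collagen IV genes in Sertoli cells, Col4a1 and Col4a2 were higher in the knockout library. Col4a1 was at 26.6 CPM (24.7 to 28.5) and 51.6 CPM (49.2 to 54.1), a log2 ratio of 0.96 (0.84 to 1.08), and was higher in 6 of the 6 clusters, by 0.55 to 1.54. Col4a2 was at 40.8 and 59.5 CPM, 0.54 (0.44 to 0.65), also higher in 6 of 6. The ratio was 0.12 (0.02 to 0.23) for Col4a3 and -0.28 (-0.38 to -0.17) for Col4a4, and within clusters they were higher in 4 and 3 of 6. Without cluster 0 the ratio of Col4a3 was -0.15, and without cluster 6 -0.02. Col4a6 was at -0.98 (-1.60 to -0.40) on 67 and 39 UMIs, of which cluster 22, with 121 and 89 cells, held 53 and 4. Without that cluster Col4a6 was at 1.06 (0.15 to 2.09), on 14 and 35 UMIs. Of the genes with a small free RNA limit, Col9a3, a chain of the cartilage collagen IX, was at 6.05 and 12.2 CPM, 1.01 (0.75 to 1.27), and Col9a2 at 1.87 and 5.003 CPM, 1.41 (0.97 to 1.89). Within clusters Col9a2 was higher in 6 of 6 and Col9a3 in 3 of 6. Col8a1, a chain of a short network collagen of vessel walls, was at 0.795 and 3.48 CPM, 2.10 (1.47 to 2.84) on 23 and 116 UMIs, and was higher in 4 of 6 clusters.

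**Figure D5:**
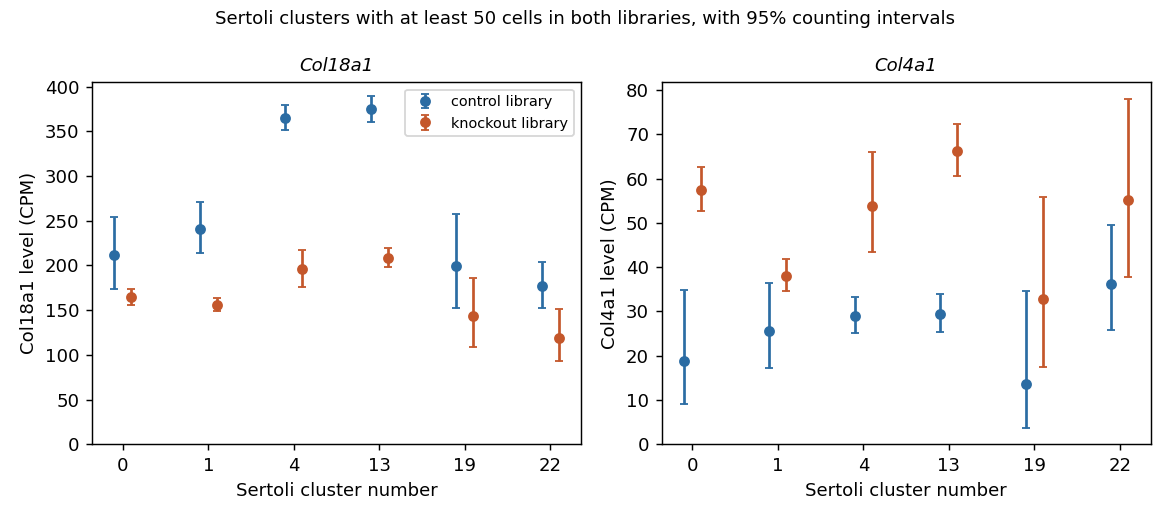
Levels of Col18a1 and Col4a1 in CPM in the 6 Sertoli clusters with at least 50 cells in both libraries, with 1 point per library and bars for the 95% counting interval. In each cluster the knockout library lies below the control for Col18a1 (375 and 209 CPM in cluster 13) and above it for Col4a1 (29.4 and 66.2 CPM in cluster 13).

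In Leydig cells, the steroid-making cells of the interstitium, 31 collagen genes were measured, 3 higher by the fold, as 5.67% of all 12491 genes were, and 2 lower, as 3.95% were. The median log2 ratio was -0.02, and 0.00 over all genes. Col14a1 was at 162 CPM (150.1 to 174) and 96.7 CPM (89.3 to 105), a log2 ratio of -0.74 (-0.90 to -0.58), and of -1.48 with each library clustered alone. Col23a1, a transmembrane collagen, was at 23.7 and 43.3 CPM, 0.86 (0.54 to 1.21). The other genes past the fold, Col9a3, Col15a1 and Col7a1, had 9 and 34, 7 and 26, and 18 and 17 UMIs. These counts depend on the processing: with each library clustered alone 15 collagen genes were higher, and with 10% of UMIs subtracted as free RNA 7 were lower. The share of all genes past the fold under these settings is not given, so whether the 15 and 7 are particular to collagens cannot be told.

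Endothelial cells had 18 collagen genes measured. Of these 9 were higher by the fold in the knockout library, as 8.90% of all 9360 genes were, and 1 lower, as 5.68% were, with a median of 0.54, and 0.01 over all genes. The genes of the vessel basement membrane, Col4a1, Col4a2 and Col18a1, were near level as given above, and Col15a1 was at -0.33 (-0.54 to -0.13). Most of the higher genes were ones that lead in stromal cells: Col1a1 was on 29 and 261 UMIs (15.9 and 278 CPM), and Col1a2 was at 127 and 297 CPM. Requiring 2000 UMIs and 1000 genes per cell brought the log2 ratio of Col1a1 from 4.11 to 2.89. Over 13 settings, the main one included, it ran from 2.89 to 9.41. Few cells carried these fibrillar genes. The 5 cells with the most fibrillar UMIs held 41.8% of such UMIs in control testis and 78.6% in knockout testis, and the median cell held 1 in each. The stromal matrix gene Dcn was at 20.2 and 297 CPM in the class, and its part in the collagen values was not tested. Col8a1 was lower, on 44 and 4 UMIs, a log2 ratio of -2.35 (-4.44 to -1.04). With a minimum of 100 UMIs, 4 genes were higher and 0 lower.

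Undifferentiated spermatogonia had 30 collagen genes measured, 9 higher, as 14.5% of all 14986 genes were, and 4 lower, as 8.53% were, with a median of 0.07, and 0.05 over all genes. Col13a1 was at a ratio of 0.81 (0.59 to 1.03), Col22a1 at -1.09 (-1.48 to -0.72) and Col25a1 at -0.26 (-0.41 to -0.12). So the germ cell collagens differed in direction, Col13a1 being higher and Col22a1 lower in the knockout library. Handling genes were higher by the fold for 12 of 18, and their part was not tested. In macrophages 11 genes were measured, 0 higher, as 6.87% of all 9954 genes were, and 1 lower, as 8.06% were, the lower being Col15a1 on 18 and 14 UMIs. Other germ cells gave 28 higher, as 37.0% of all 17056 genes were, and 3 lower, as 14.5% were, of 41. Of their 6 clusters 3 held no knockout cell, so these values compare different stages.

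Genes that make, export, trim, cross-link and bind collagen were taken as lists, to be read against the shares of all genes past the fold given above for each class. In interstitial stromal cells 0 of the 20 genes of collagen folding, modification and export, such as prolyl and lysyl hydroxylases, were past the fold, with a median log2 ratio of 0.01. The lowest with over 100 UMIs in each library was P4ha2, a prolyl hydroxylase subunit, at 71.2 and 50.1 CPM (-0.51). Trimming and cross-linking gave 0 of 12, with a median of -0.15. Other basement membrane genes, such as laminins, gave 2 higher and 0 lower of 15, Lama3 (16 and 50 UMIs) and Lama5 (9 and 25 UMIs). Other matrix genes gave 2 higher and 0 lower of 16, Tnc at 1.75 and 7.12 CPM and Thbs1 at 4.72 and 7.15 CPM. Collagen receptors gave 0 of 7, and breakdown genes and their inhibitors 1 of 11. In stromal cells few genes of these lists thus passed the fold, and few of all genes measured there did.

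Peritubular myoid cells gave 0 of 18 folding genes past the fold. Of 9 trimming and cross-linking genes 1 was higher, the cross-linking enzyme Lox, at 23.3 and 47.8 CPM (1.03 (0.73 to 1.35)). Basement membrane genes gave 0 higher and 1 lower of 13, with the laminin chain Lama2 at 1454 and 1944 CPM (0.42), short of the fold. Other matrix genes gave 4 higher and 2 lower of 14, with Thbs1 at 9.44 and 28.5 CPM and Eln, the elastin gene, at 1554 and 1014 CPM (-0.62 (-0.66 to -0.57)). Receptors gave 0 higher and 1 lower of 7, the lower being Itga11, and breakdown genes 0 of 9.

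In Sertoli cells, where 19.8% of all genes were higher by the fold and 9.02% lower, more genes of the lists passed it. Of 18 folding genes 9 were higher and 0 lower, with Serpinh1, a chaperone of procollagen, at 30.7 and 78.9 CPM (1.36 (1.25 to 1.47)). Trimming and cross-linking gave 5 higher and 1 lower of 9, with Pxdn, which cross-links collagen IV, at 6.95 and 18.7 CPM (1.42 (1.20 to 1.66)). Of 14 other basement membrane genes 6 were higher and 2 lower. Lamb1 was at 10.4 and 22.4 CPM (1.11), while the laminin chain Lama1 was at 427 and 272 CPM (-0.65 (-0.69 to -0.61)) and Nid1, which links laminin to collagen IV, at 25.3 and 12.3 CPM (-1.05 (-1.22 to -0.87)). The other basement membrane genes thus lay on both sides. Other matrix genes gave 9 higher and 1 lower of 15, receptors 2 and 2 of 9, and breakdown genes and inhibitors 5 and 0 of 10. The gelatinase Mmp2 was at 0.865 and 6.89 CPM (2.97 (2.40 to 3.65)), on 25 and 230 UMIs. Free RNA limits and values within clusters are not given for the genes of these lists. Leydig cells gave at most 2 higher and 1 lower in any of these lists, Lama2 being lower at 950.1 and 609.7 CPM (-0.64).

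Across the 16 profiles, the 5 genes other than collagens whose log2(CPM + 1) levels were most like Col1a1 were Osr1 (r = 0.98), Igfbp6, Adamts5, Lhx9 and Dcn (0.96). For Col4a1 they were Plscr2 (0.98), C1qtnf1, Pam, Osmr and Gng11 (0.96), and for Col4a3 Il15ra (0.96), Dnm3os, Smim41, Setbp1 and Slc10a6 (0.94). They are the highest of 12726 genes, so the values carry no test.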

How the data were processed

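The deposited counts were raw UMI counts per gene and barcode, written by Cell Ranger 7.1.0 per the file headers, with the mm10 build per the submitters' processing notes, covering 1707157 (control) and 1477364 (knockout) barcodes with 146528736 and 112746953 UMIs. Strand and intron use in counting are not given in the sources used here. Barcodes with at least 1000 UMIs, 500 genes and at most 20% mitochondrial UMIs were called cells (11232 and 10864). Scrublet doublets were removed at the control's threshold, 4.41% and 2.53% of them, the knockout library's own threshold marking 0. Both libraries were clustered together with scanpy 1.11.5 (2000 variable genes without collagens, 30 components, Leiden resolution 1) and clusters named from marker lists. Unnamed cells (62 and 1059) and the few pericytes and rete or mesothelial cells were not compared. Among the unnamed, 52 and 885 cells formed a cluster with Sertoli markers, so the Sertoli class leaves out more such cells of the knockout library.

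Counts were summed per class and library and given as CPM, with exact Poisson intervals. Log2 ratios carry 0.5 UMIs added to each sum and an exact conditional interval (scipy 1.17.1). The upper limit of free RNA in a class is the lowest ratio of its level to that of barcodes with 10 to 100 UMIs over marker genes of other classes. The intervals were tried on counts simulated with counting error alone, which cannot show how they hold with variation between cells or animals. The members and lists were chosen with earlier results of these data known. Any collagen gene could be named, and of each other list the 2 highest and 2 lowest ratios per class, besides markers, Psma7 and the 5 genes most like Col1a1, Col4a1 and Col4a3. Alternatives were other cell and gene minimums, doublets kept, other clusterings, free RNA subtracted, clusters left out and centring on the median gene.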

Additional observations from a re-analysis of the deposited data

Results flagged for a closer look

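These results stand out because the same comparison of libraries went in opposite directions past 1.5-fold in different cell classes. Whether the directions differ beyond the variation between animals was not tested, since each genotype has 1 library. Col14a1 had a log2 ratio of 0.91 in Sertoli cells and -0.74 in Leydig cells, a difference of 1.65. The Sertoli ratio of Col14a1 was 0.54 without cluster 0 and 0.58 without cluster 4, both under 1.5-fold, and it was -0.09 within cluster 1, on 5 and 50 UMIs. The Leydig ratio of Col14a1 was -1.48 with each library clustered alone. Col8a1 had a log2 ratio of 2.10 in Sertoli cells and -2.35 in endothelial cells, a difference of 4.45, with 4 UMIs in endothelial cells of the knockout library. Col8a1 in stromal cells was at -0.78, a difference of 2.88 from Sertoli cells. Without stromal cluster 14 it was -0.16, on 19 and 30 UMIs.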

How the results depend on the processing

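Among results past the fold 1 changed direction, Col4a6 in Sertoli cells, at 1.06 without cluster 22. Of the values that answer a comparison 216 stayed within 1.5-fold of the main count, or within its counting interval, and 76 moved. The cause of each move was not tested, apart from the minimum per gene, which sets how many genes are measured. The stromal share of collagen UMIs (70.9% and 80.1%) became 71.4% and 80.4% with a minimum of 500 UMIs and 250 genes per cell, 67.2% and 75.4% with one of 2000 UMIs and 1000 genes, 68.9% and 76.6% with at most 10% mitochondrial UMIs, 70.4% and 78.9% with doublets kept, 68.2% and 75.7% with resolution 2, 70.1% and 76.2% with each library clustered alone, 69.6% and 78.99% with collagen genes used in clustering, 73.2% and 82.3% with 10% subtracted as free RNA, 72.2% and 80.9% with free RNA at its upper limit, and 71.7% and 80.99% with clusters under 2000 median UMIs left out. The log2 ratio of summed collagen in interstitial stromal cells (-0.06) became -0.067 with a minimum of 500 UMIs and 250 genes per cell, -0.046 with one of 2000 UMIs and 1000 genes, -0.052 with at most 10% mitochondrial UMIs, 0.055 with doublets kept, -0.042 with resolution 2, -0.080 with 10% subtracted as free RNA, -0.044 with centring on the median gene and -0.075 with free RNA at its upper limit. Collagen genes higher by the fold in Leydig cells (3) numbered 6 with a minimum of 500 UMIs and 250 genes per cell, 5 with one of 2000 UMIs and 1000 genes, 5 with at most 10% mitochondrial UMIs, 5 with resolution 2, 15 with each library clustered alone, 1 with at least 100 UMIs per gene and 8 with at least 1 UMI per gene. Collagen genes lower by the fold in Leydig cells (2) numbered 4 with a minimum of 500 UMIs and 250 genes per cell, 4 with one of 2000 UMIs and 1000 genes, 4 with doublets kept, 4 with resolution 2, 4 with collagen genes used in clustering, 7 with 10% subtracted as free RNA, 1 with at least 100 UMIs per gene and 5 with at least 1 UMI per gene. The log2 ratio of summed collagen in Leydig cells (-0.18) became -0.10 with a minimum of 500 UMIs and 250 genes per cell, -0.011 with one of 2000 UMIs and 1000 genes, -0.021 with at most 10% mitochondrial UMIs, -0.025 with doublets kept, 0.062 with resolution 2, 0.45 with each library clustered alone, -0.28 with 10% subtracted as free RNA and -0.21 with free RNA at its upper limit. The log2 ratio of summed collagen in endothelial cells (0.19) became 0.022 with a minimum of 500 UMIs and 250 genes per cell, 0.077 with one of 2000 UMIs and 1000 genes, 0.069 with at most 10% mitochondrial UMIs and 0.11 with 10% subtracted as free RNA. The log2 ratio of summed collagen in Sertoli cells (-0.04) became -0.087 with doublets kept, -0.42 with 10% subtracted as free RNA, -0.085 with centring on the median gene and -0.23 with free RNA at its upper limit. Collagen genes lower by the fold in peritubular myoid cells (1) numbered 0 with resolution 2, 2 with 10% subtracted as free RNA, 0 with at least 100 UMIs per gene and 3 with at least 1 UMI per gene. Collagen genes lower by the fold in interstitial stromal cells (2) numbered 1 with 10% subtracted as free RNA, 1 with at least 100 UMIs per gene and 4 with at least 1 UMI per gene. The log2 ratio of summed collagen in peritubular myoid cells (-0.07) became -0.11 with 10% subtracted as free RNA, -0.0013 with centring on the median gene and -0.094 with free RNA at its upper limit. Collagen genes higher by the fold in Sertoli cells (19) numbered 8 with 10% subtracted as free RNA. Collagen genes higher by the fold in interstitial stromal cells (2) numbered 1 with at least 100 UMIs per gene. Collagen genes higher by the fold in peritubular myoid cells (9) numbered 5 with at least 100 UMIs per gene. Collagen genes higher by the fold in endothelial cells (9) numbered 4 with at least 100 UMIs per gene and 18 with at least 1 UMI per gene. Collagen genes lower by the fold in endothelial cells (1) numbered 0 with at least 100 UMIs per gene and 7 with at least 1 UMI per gene. No share of all genes past the fold is given beside the counts under other settings. Of values for single genes 827 stayed and 123 moved, and of those for lists 525 and 35. Subtracting free RNA at its upper limit, counting the unnamed cluster with Sertoli markers as Sertoli cells, leaving out clusters under 2000 median UMIs and leaving out each cluster in turn were chosen after seeing the data. No paired analysis was possible because each genotype has 1 library. With 1 library per genotype, differences between animals, cell capture and genotype cannot be told apart, and genes with few UMIs, such as Col8a1, Col9a3 and Col22a1, have wide intervals.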
